A study of Mus musculus with 6 samples.

Results

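The genes described are Tnfaip3, which encodes A20, and 8 other genes whose products are known as brakes on Toll-like receptor (TLR) signaling: Tnip1, Tnip3, Irak3, Cyld, Tollip, Sigirr, Otulin and Peli1. They were taken by symbol from the authors' table of read counts, where all 9 were found among 54532 genes. RNA-seq was carried out on N9 microglia, an immortalized line from mouse brain, in 3 libraries from untreated control cells and 3 libraries from cells given lipopolysaccharide (LPS) at 1 µg/ml for 6 h. N9 is 1 cell line, so other brain cells that respond to or shape microglia are not part of this model. The labels do not say whether the libraries of a group came from separate cultures, so the p-values measure the spread between these samples, which may be technical.

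LPS comes from the outer membrane of gram-negative bacteria and is sensed by TLR4. The adaptor MyD88 then assembles IRAK kinases, and the ligase TRAF6 builds chains of ubiquitin that recruit the kinases of the NF-kappa B and MAP kinase pathways. Brakes act at each level. SIGIRR, TOLLIP and IRAK3 act near the receptor complex, whereas A20, CYLD and OTULIN edit or remove ubiquitin chains and the TNIP proteins bind ubiquitin and work with A20. In macrophages and microglia A20 is known for limiting NF-kappa B activity after stimulation, and several of the brakes are themselves encoded by NF-kappa B target genes.

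The total count per library lay between 16363767 and 17956772. Levels are given as CPM, counts scaled to the TMM-normalized library size, as mean ± SD over 3 libraries. Changes are log2 fold changes, LPS minus control, with their standard error (SE), tested with edgeR's quasi-likelihood test over the 12296 genes that passed its filter on low counts, with Benjamini-Hochberg adjustment. A gene is said to have risen or fallen at an adjusted p under 0.05, and is a DEG if its log2 fold change also exceeds 1.5 in size. Of 12 microglia markers, Csf1r, Tyrobp, Trem2, Ptprc and Spi1 were well counted in every library, whereas Aif1, P2ry12 and Fcrls held between 2 and 12 counts. Cx3cr1 and Tmem119 were present at low levels. The N9 cells thus matched their label by general myeloid genes and not by Aif1, P2ry12 and Fcrls. Summed over 5 markers each, astrocyte genes lay between 27.9 and 29.9 CPM in control and between 21.5 and 25.2 CPM in LPS libraries, and neuron genes between 26.3 and 27.8 and between 27.7 and 32.3 CPM, against 1443 to 1463 and 1600 to 1616 CPM for the 12 microglia markers. Gfap, Aqp4 and Slc1a3 of the astrocyte list, Rbfox3, Snap25 and Syt1 of the neuron list, and the oligodendrocyte genes Mog and Mag held between 0 and 10 counts in every library. The oligodendrocyte gene Mbp held between 457 and 672 counts and Cnp between 219 and 256. The astrocyte sum was nearly all Aldh1l1, and the neuron sum nearly all Map2 and Tubb3. The sums hide changes in opposite directions. Tubb3 rose from 4.06 ± 0.615 to 13.0 ± 1.77 CPM (log2 fold change 1.67, SE 0.15, edgeR adjusted p = 7.3e-07) and was a DEG, whereas Map2 fell by 0.41, Mbp by 0.34 and Aldh1l1 by 0.29 on that scale (edgeR adjusted p = 0.00221, 0.00284 and 0.0129). The part of these genes in the results was not tested. The 16 hepatocyte markers summed to between 145 and 181 CPM in control and between 264 and 279 CPM in LPS libraries. Of the 3 tested, Hp rose by 1.32 and Ass1 by 0.64 in log2 units (edgeR adjusted p = 8.7e-12 and 1.2e-06). Ambp was not called (edgeR adjusted p = 0.403). The part of Hp and Ass1 in the results was not tested. The other 13 were below the filter. Their summed counts were 287 and 503 for control replicates 2 and 3 and between 5 and 17 for the other 4 libraries. Values without both of those control libraries are given with the results below.

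With LPS, 6 of the 9 brakes rose and none fell, whereas 18.7% of all tested genes rose and 15.7% fell. All 9 passed the filter. The 6 were Tnfaip3, Irak3, Tnip1, Tnip3, Peli1 and Otulin, in order of their log2 fold changes from 2.34 to 0.16. Of these, Tnfaip3 and Irak3 were DEG, as were 2.4% of all tested genes in the upward direction. Cyld and Tollip stayed close to their control levels, and Sigirr was lower with LPS without passing the test. DESeq2 called 5 of the 9 and none lower, and at an unadjusted p under 0.05 edgeR gave 7 higher and 1 lower. The shares of 18.7% and 15.7% hold for edgeR at an adjusted p under 0.05 only. Shares of all genes are not given for DESeq2 or for an unadjusted p, here or for the lists below. The median log2 fold change was 1.04 over the 9 brakes and 0.004 over all tested genes. In bulk RNA a change in the number of expressing cells and a change in RNA per cell cannot be told apart.

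**Figure D1:**
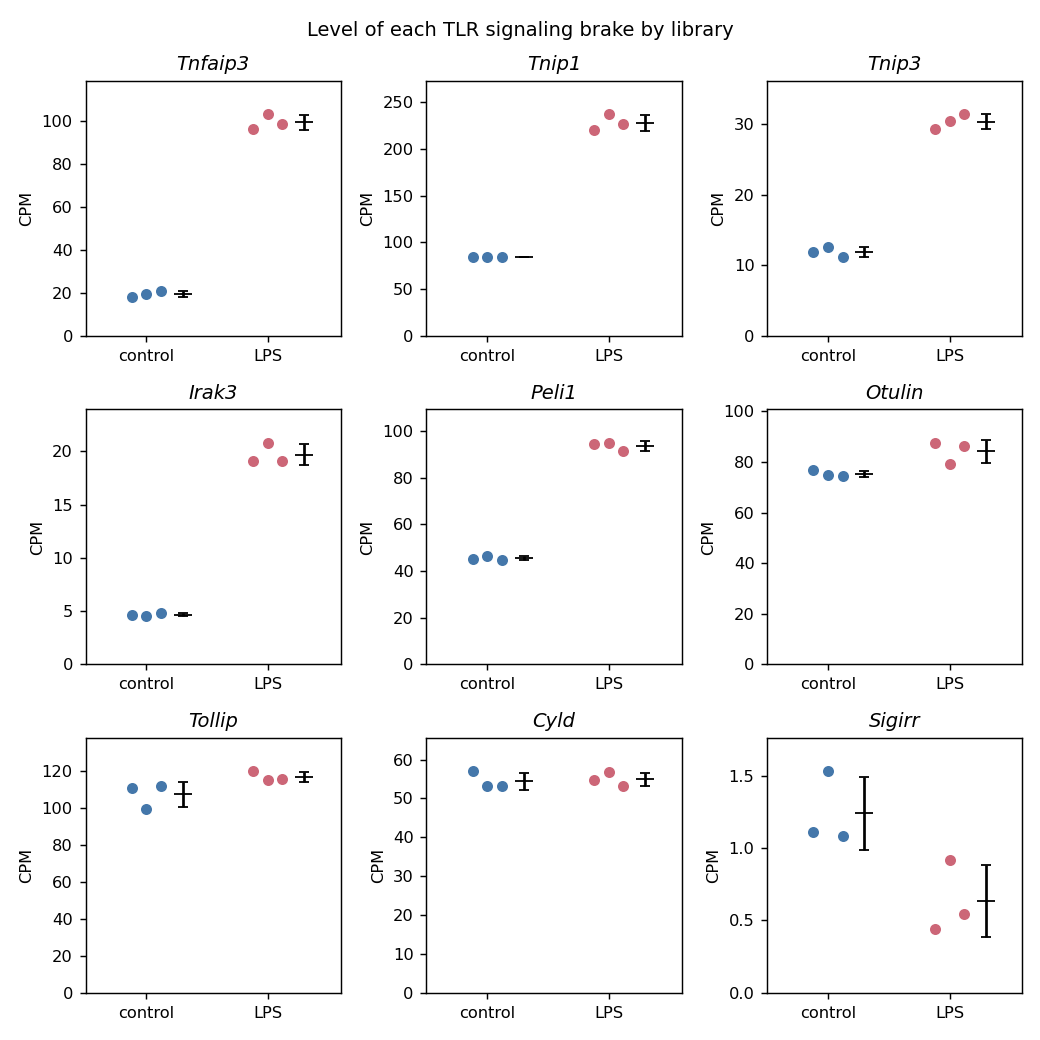
Level of each brake in CPM (vertical axes, each from 0) in the 3 control and 3 LPS libraries; each point is a library, and the black bar gives the mean with its SD. The LPS points of Tnfaip3, Tnip1, Tnip3, Irak3 and Peli1 stand far above the control points, those of Otulin and Tollip stand slightly above, those of Cyld are intermingled, and those of Sigirr are lower.

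Tnfaip3 (ENSMUSG00000019850) lies on the minus strand of chromosome 10 of GRCm38 from 19000910 to 19015657. Its protein A20 joins a deubiquitinase and a ubiquitin ligase in 1 molecule and acts on ubiquitinated signaling proteins such as RIPK1 and TRAF6. Control replicates 1 to 3 held 312, 347 and 391 counts, and LPS replicates 1 to 3 held 1516, 1694 and 1619. Every LPS library lay far above every control library. The level rose from 19.6 ± 1.41 to 99.3 ± 3.67 CPM (n = 3), a log2 fold change of 2.34 (SE 0.06, edgeR adjusted p = 5.7e-13), or 5.05-fold with a 95% confidence interval from 4.59 to 5.56. This was the largest change among the 9 brakes and rank 150 when all tested genes are ordered from the largest rise. Without control replicates 2 and 3, where the lone control library is assumed to vary like the others, the log2 fold change was 2.45 (edgeR adjusted p = 4.7e-10).

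Tnip1 and Tnip3, which encode A20-binding proteins, rose by less than Tnfaip3. Tnip1 (ENSMUSG00000020400; chromosome 11, 54910785 to 54962917), whose product ABIN1 binds A20 and linear ubiquitin, had 1443, 1495 and 1570 counts in control and 3465, 3881 and 3730 in LPS libraries. The control libraries were nearly identical in CPM, and the groups did not overlap. The level rose from 84.5 ± 0.257 to 228 ± 8.55 CPM (n = 3), a log2 fold change of 1.43 (SE 0.05, edgeR adjusted p = 3.6e-12), or 2.7-fold. Tnip3 (ENSMUSG00000044162; chromosome 6, 65525313 to 65634040), whose product ABIN3 is a smaller relative, had 204, 222 and 208 counts against 462, 498 and 516. It rose from 11.9 ± 0.698 to 30.4 ± 1.07 CPM, a log2 fold change of 1.35 (SE 0.09, edgeR adjusted p = 1.3e-08), or 2.55-fold, again without overlap. Both genes rose by less than the DEG threshold of 1.5 on the log2 scale, and both confidence intervals, 1.33 to 1.53 for Tnip1 and 1.16 to 1.54 for Tnip3, reach across it. Without control replicates 2 and 3 the values were 1.44 for Tnip1 (edgeR adjusted p = 1.5e-08) and 1.35 for Tnip3 (edgeR adjusted p = 5.6e-06). The third relative, Tnip2, had 20.6 ± 0.392 CPM in control and 23.3 ± 2.99 CPM in LPS libraries, a log2 fold change of 0.18 (SE 0.10, edgeR adjusted p = 0.181).

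The stretches of promoter before the start sites of these 3 genes are shown because each holds letters of an NF-kappa B site close to the start. They are the last 120 bases before a RefSeq start site on GRCm38.p6, written 5′ to 3′ on the gene's own strand, and capitals mark matches lying wholly within the stretch, on either strand, to the 10-letter NF-kappa B consensus or to the 9-letter motif GGAANTTCC. The Tnfaip3 stretch is chr10:19015411-19015530 on the minus strand, the Tnip1 stretch is chr11:54962941-54963060 on the minus strand, and the Tnip3 stretch is chr6:65590278-65590397 on the plus strand.
Tnfaip3: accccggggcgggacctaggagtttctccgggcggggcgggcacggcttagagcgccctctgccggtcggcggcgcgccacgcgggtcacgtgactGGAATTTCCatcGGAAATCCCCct
Tnip1: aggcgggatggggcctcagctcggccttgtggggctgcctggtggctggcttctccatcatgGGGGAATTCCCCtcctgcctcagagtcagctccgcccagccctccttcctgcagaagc
Tnip3: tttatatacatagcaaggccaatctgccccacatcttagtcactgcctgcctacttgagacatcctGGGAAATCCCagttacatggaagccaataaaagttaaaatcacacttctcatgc

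In Tnfaip3 GGAANTTCC lay at positions -24 to -16 and a consensus match at -12 to -3, counted from the start site, and the 2 did not overlap. In Tnip1, 3 overlapping consensus matches covered -58 to -47. In Tnip3 a single match covered -54 to -45. The Tnip3 start used here, at 65590398, lies inside the gene span given above, and the annotated gene start at 65525313 was not searched. A further consensus match in Tnfaip3, at -125 to -116, runs across the left edge of the printed stretch, which holds its last 5 bases in lower case. The RefSeq table held promoters for 8 of the 9 brakes, in 10 windows of 300 bases from 250 before to 50 after a start, and the unmatched gene was Sigirr. The consensus was found in 4 of these windows, in Tnfaip3, Tnip1, Tnip3 and Cyld, and in 8.46% of all 32817 windows of that length. GGAANTTCC was found in 1 of the 10 windows and in 0.926% of all windows. The interferon-type motif of 2 GAAA runs with 2 bases between them was found in 0 of the 10 windows and in 3.43% of all windows. The Cyld match lay at -155 to -146, and no match to these motifs was found in the windows of Irak3, Peli1, Otulin and Tollip. The Tollip start used, at 141902461, likewise lies inside its gene, and the annotated gene start at 141918507 was not searched. A match is a run of letters and not evidence of binding, and the second annotated start of Tnfaip3 had no match.

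Irak3 (ENSMUSG00000020227; chromosome 10, 120141648 to 120202130, minus strand) encodes IRAK-M, an IRAK family member with little kinase activity that holds back the IRAK and TRAF6 step. It had 79, 81 and 90 counts in control and 302, 341 and 313 in LPS libraries, so that each LPS library held several times the count of any control library. The log2 fold change was 2.07 (SE 0.11, edgeR adjusted p = 1.6e-09), or 4.19-fold with a 95% confidence interval from 3.55 to 4.95. It was 2.09 without control replicates 2 and 3 (edgeR adjusted p = 1.4e-06). Among the other IRAK genes, which encode the activating kinases, Irak2 rose from 33.9 ± 0.557 to 83.6 ± 5.01 CPM (n = 3), a log2 fold change of 1.30 (SE 0.06, edgeR adjusted p = 2.1e-10). Irak1 had 74.4 ± 2.67 CPM in control and 70.3 ± 2.99 CPM in LPS libraries, and Irak4 had 25.8 ± 1.61 and 25.1 ± 0.926 CPM. Neither passed the test (edgeR adjusted p = 0.268 and 0.724). Exons of Irak3 share 192 bases with those of Tmbim4 on the opposite strand, and whether the authors' counting used strand is not given in the sources used here. Tmbim4 held between 424 and 447 counts in control and between 466 and 520 in LPS libraries.

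Peli1 (ENSMUSG00000020134; chromosome 11, 21091291 to 21150323) encodes Pellino 1, a ubiquitin ligase that binds IRAK proteins and has been described both as a brake and as an activator, depending on the cell and the receptor. It had 775, 818 and 833 counts in control and 1490, 1557 and 1499 in LPS libraries. The groups were well apart, and the spread within each was small. Peli1 rose from 45.5 ± 0.806 to 93.6 ± 1.99 CPM (n = 3), a log2 fold change of 1.04 (SE 0.05, edgeR adjusted p = 3.4e-10), or 2.06-fold. Without control replicates 2 and 3 it was 1.05 (edgeR adjusted p = 2.7e-07). Its relatives were scarce in these cells. Peli2 held 2 counts in control replicate 1 and 0 in the other 5 libraries, and Peli3 held between 9 and 23 counts in every library.

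Otulin (ENSMUSG00000046034; chromosome 15, 27542635 to 27630693) encodes the deubiquitinase that takes apart linear ubiquitin chains. It had 1316, 1321 and 1387 counts in control and 1382, 1297 and 1416 in LPS libraries. In raw counts the groups overlap, whereas after scaling the control libraries lay between 74.6 and 76.8 CPM and the LPS libraries between 79.1 and 87.6 CPM. The log2 fold change was 0.16 (SE 0.05, edgeR adjusted p = 0.0259), a rise of 1.12-fold with a 95% confidence interval from 1.04 to 1.21. This call was lost with DESeq2 (0.15, adjusted p = 0.0787), with upper-quartile scaling in edgeR (0.11, adjusted p = 0.114), without control replicate 2 (0.15, edgeR adjusted p = 0.0739), without control replicate 3 (0.15, edgeR adjusted p = 0.107), without LPS replicate 1 (0.13, edgeR adjusted p = 0.0929), without LPS replicate 3 (0.14, edgeR adjusted p = 0.0913), and without control replicates 2 and 3 together (0.14, edgeR adjusted p = 0.246). The neighbouring Otulinl, a relative without known deubiquitinase activity, fell from 31.6 ± 3.81 to 20.7 ± 1.94 CPM (n = 3), a log2 fold change of -0.61 (SE 0.10, edgeR adjusted p = 2.3e-04).

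Cyld (ENSMUSG00000036712; chromosome 8, 88697028 to 88751945) encodes a deubiquitinase that removes linear chains and chains linked through lysine residues. It had 976, 936 and 987 counts in control and 864, 930 and 875 in LPS libraries. Scaled to library size, the groups were intermingled, with 54.4 ± 2.25 and 54.9 ± 1.72 CPM (n = 3). The log2 fold change was 0.01 (SE 0.06, edgeR adjusted p = 0.869), and its 95% confidence interval from -0.11 to 0.14 corresponds to between 0.929-fold and 1.1-fold. A p-value above the threshold does not show that the level was the same, and this interval gives the range of changes that the libraries allow. Without control replicates 2 and 3 it was -0.05 (edgeR adjusted p = 0.702).

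Tollip (ENSMUSG00000025139; chromosome 7, 141874813 to 141918507), whose product binds IRAK1 and takes part in sorting receptors to endosomes, had 1901, 1759 and 2089 counts in control and 1889, 1892 and 1908 in LPS libraries. Control replicate 2 was the lowest. In CPM the LPS libraries lay just above the control libraries, 117 ± 2.31 against 108 ± 6.94 (n = 3). The log2 fold change of 0.12 (SE 0.05) did not pass the test (edgeR adjusted p = 0.09), and its 95% confidence interval ran from 0.01 to 0.23. It was 0.06 without control replicate 2 and 0.08 without control replicates 2 and 3 (edgeR adjusted p = 0.417 and 0.459).

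Sigirr (ENSMUSG00000025494; chromosome 7, 141091175 to 141100572) encodes a membrane protein with a TIR domain that restrains IL-1 receptor and TLR complexes. It was the least counted brake, with 19, 27 and 20 counts in control and 7, 15 and 9 in LPS libraries. Every LPS library lay below every control library. From 1.24 ± 0.253 to 0.635 ± 0.247 CPM (n = 3), the log2 fold change was -0.95 (SE 0.38, edgeR adjusted p = 0.0713), with a wide 95% confidence interval from -1.77 to -0.13. A decrease of Sigirr was not called by the adjusted test, which does not show that its level was the same. With each library omitted, the log2 fold change ran from -1.30 to -0.75, and without control replicates 2 and 3 it was -0.79 (edgeR adjusted p = 0.449).

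**Figure D2:**
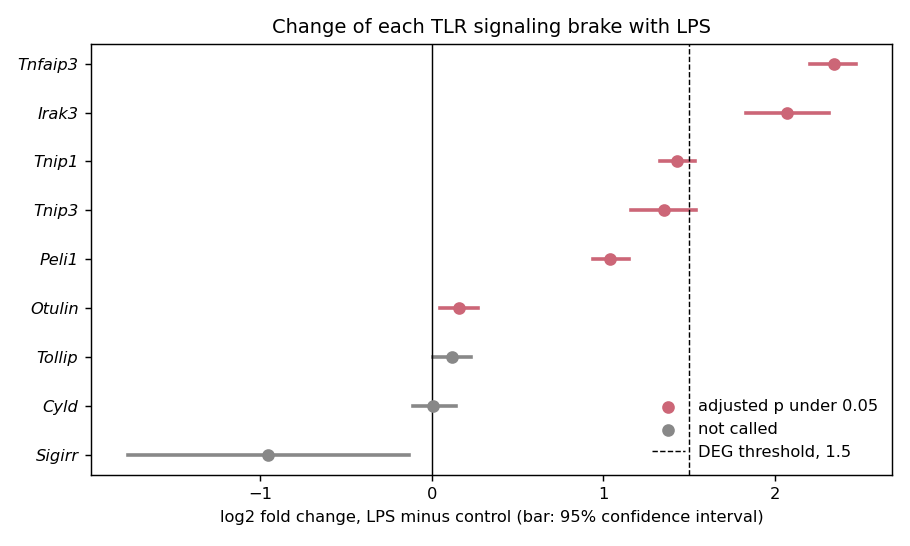
Log2 fold change of each brake, LPS minus control (horizontal axis), as points with bars for the 95% confidence interval from edgeR; red marks an adjusted p under 0.05, and the dashed line the DEG threshold of 1.5. Tnfaip3 at 2.34 and Irak3 at 2.07 stand beyond the threshold, Tnip1, Tnip3 and Peli1 lie between 1.04 and 1.43, and the bar of Sigirr is the widest.

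The groups did not overlap in CPM for 8 of the 9 brakes, which also held for 45.3% of all tested genes. Tnfaip3, Tnip1, Tnip3, Irak3 and Peli1 rose in every one of 14 alternative fits, and the lowest log2 fold change in any of them was 0.99, for Peli1. Otulin was called in 7 of the 14, and Cyld, Tollip and Sigirr in none.

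Levels of different genes were compared per kilobase of the exon length that the authors list, which equals the union of the GENCODE M21 exons for all 9 genes. In control libraries the order was Otulin at 44.6 ± 0.712, Tnip1 at 23.9 ± 0.0726, Tollip at 21.3 ± 1.37, Peli1 at 6.94 ± 0.123, Cyld at 4.32 ± 0.179, Tnfaip3 at 2.72 ± 0.195, Irak3 at 1.27 ± 0.0378, Tnip3 at 1.09 ± 0.0639 and Sigirr at 0.407 ± 0.0833 CPM per kb (n = 3). No neighbours in this order had overlapping libraries. In LPS libraries Tnip1 stood first at 64.4 ± 2.42 CPM per kb, above Otulin at 49.8 ± 2.69 and Tollip at 23.1 ± 0.457. Peli1 at 14.3 ± 0.304 and Tnfaip3 at 13.7 ± 0.507 CPM per kb followed, and their libraries overlapped. Irak3 at 5.35 ± 0.267 stood above Cyld at 4.37 ± 0.137, then came Tnip3 at 2.78 ± 0.0979 and Sigirr at 0.209 ± 0.0813 CPM per kb. Tnip1 thus changed places with Otulin, and both Tnfaip3 and Irak3 moved from below Cyld to above it. Exon length counts every annotated isoform, so genes with long, rarely used exons are set too low in this order.

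Ratios taken within a library need no scaling between libraries. Irak3 relative to the summed reads per kb of Irak1, Irak2 and Irak4 was 0.0443, 0.0438 and 0.0455 in control and 0.14, 0.142 and 0.131 in LPS libraries. The ratio was higher in every LPS library, by 1.63 on the log2 scale. Tnfaip3 relative to Cyld plus Otulin was 0.0505, 0.0562 and 0.0603 in control and 0.237, 0.279 and 0.247 in LPS libraries. It was likewise higher in every LPS library, by 2.19 on the log2 scale. Tnip3 relative to Tnip1 plus Tnip2 lay between 0.0325 and 0.0363 in control and between 0.0363 and 0.0401 in LPS libraries, so that the groups overlapped at their edges. Peli1 relative to Peli2 plus Peli3 ran from 26.7 to 52.5 in control and from 37.7 to 57.4 in LPS libraries, and the groups overlapped. In exact permutation tests of the 4 log2 ratios, two-sided, p was 0.1 for the IRAK and deubiquitinase ratios and 0.2 for the TNIP and Pellino ratios, and the adjusted p was 0.2 for each. With 3 libraries against 3 this test cannot go below 0.1.

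**Figure D3:**
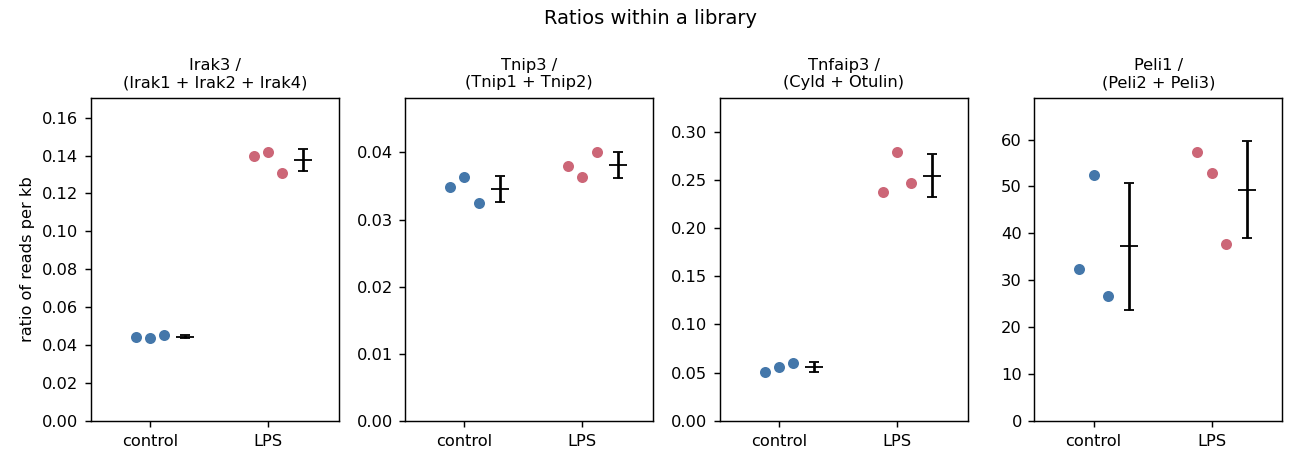
Ratio of reads per kb within each library (vertical axes, each from 0) for Irak3, Tnip3, Tnfaip3 and Peli1 over their relatives; points are libraries, and the black bar gives the mean with its SD. The LPS points lie above all control points for Irak3 and Tnfaip3, and overlap them for Tnip3 and Peli1.

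Other genes of the pathway were counted from lists written for this comparison. Of 8 genes for the LPS receptor and its adaptors, 7 were tested, 4 rose and 1 fell, with a median log2 fold change of 0.26. Ticam1, which encodes the adaptor TRIF, rose by 0.81 in log2 units (SE 0.08, edgeR adjusted p = 1.7e-06), Cd14, the co-receptor, by 0.61 (SE 0.03, edgeR adjusted p = 2.1e-10) and Myd88 by 0.55 (SE 0.05, edgeR adjusted p = 8.8e-07). Tlr4, the receptor itself, fell from 88.3 ± 3.32 to 61.4 ± 3.96 CPM (n = 3; edgeR adjusted p = 3.6e-06). Of 17 activating kinases and ligases, all tested, 7 rose and none fell by edgeR or DESeq2, whereas at an unadjusted p under 0.05 edgeR gave 8 higher and 1 lower. Their median was 0.19. The largest rises were those of Map3k8, the kinase TPL2, at 1.84 (SE 0.14, edgeR adjusted p = 9.9e-08) and of Ikbke, an IKK-related kinase, at 1.81 (SE 0.06, edgeR adjusted p = 5.4e-12), followed by Irak2. In the list of other ubiquitin enzymes and binding partners, 8 of 17 rose and 1, Otulinl, fell, with a median of 0.09. A second gene fell when control replicate 1, control replicate 2 or LPS replicate 3 was left out. Birc3, a ubiquitin ligase, rose by 0.82, Rnf31, the catalytic subunit of the complex that builds linear chains, by 0.76, and Usp25, a deubiquitinase, by 0.72 (edgeR adjusted p = 1.2e-06, 1.6e-06 and 1.1e-08).

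Of 27 further inhibitors of TLR or NF-kappa B signaling, 26 were tested, 16 rose and 4 fell, with a median log2 fold change of 0.48. Usp18, which removes ISG15 and limits interferon receptor signaling, rose from 4.11 ± 1.07 to 186 ± 13 CPM (n = 3), by 5.50 on the log2 scale (edgeR adjusted p = 8.1e-15). Zc3h12a, the cytokine mRNA nuclease Regnase-1, rose by 3.56 (edgeR adjusted p = 5.8e-14) and Trim30a by 2.97 (edgeR adjusted p = 1.3e-14). Both exceeded the 2.34 of Tnfaip3. Il1rl1, which encodes the ST2 receptor, fell by 0.94 on the log2 scale, Ptpn6, the phosphatase SHP-1, by 0.55, and Inpp5d, the phosphatase SHIP-1, also by 0.55 (edgeR adjusted p = 7.7e-07, 5.2e-08 and 2.1e-06). Of 11 relatives of the brakes, 9 were tested. In this list Irak2 rose, whereas Otulinl, Il1rl1 and Tlr4 fell, and the median was -0.04. These called genes, and Irak1, Irak4 and Otud7b, also belong to the lists above, so this list is not independent of them.

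**Figure D4:**
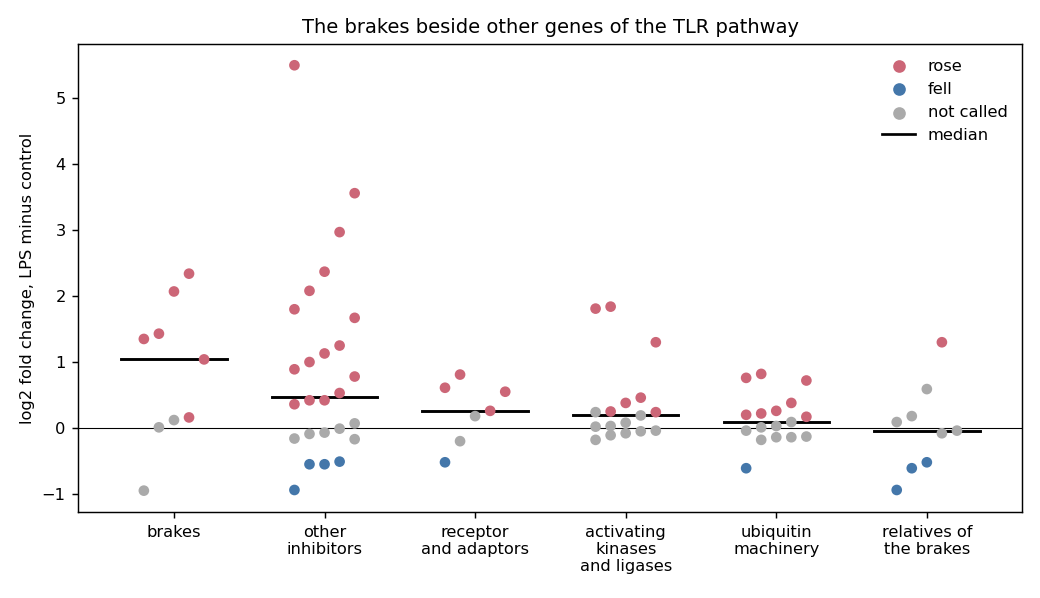
Log2 fold change, LPS minus control (vertical axis), of every tested gene of each list, the brakes at the left; each point is a gene, red if it rose, blue if it fell and grey if it was not called, and the black line is the median of the list. The medians run from 1.04 for the brakes to -0.04 for their relatives, and the other inhibitors span the widest range. Most tested relatives also belong to another list and are drawn there again.

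The genes whose profiles lay closest to a brake were found by the root mean square difference of log2 CPM, each gene centred on its mean, over the 6 libraries and among the 10453 tested genes whose mean count reached 50. Closest to Tnfaip3 were Slc7a11, the cystine and glutamate exchanger, at 0.044, Parp9, an interferon-linked PARP, at 0.068, and Ier3, an immediate early gene, at 0.071. Their log2 fold changes of 2.32, 2.26 and 2.42 stand beside the 2.34 of Tnfaip3. Closest to Irak3 were Socs3, a feedback inhibitor of cytokine receptors, Sp140, a nuclear body protein, and Slc11a2, a metal transporter, each at 0.057. With 6 libraries in 2 groups, genes with a change of like size come out close by construction.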

How the data were processed

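RNA-seq libraries of N9 microglia were grouped by their labels into 3 control and 3 LPS libraries. The authors deposited read counts per gene, unnormalized. The submitters' processing notes name featureCounts version 1.5.0-p3 and build mm10, and the aligner and strand setting are not given in the sources used here. The authors' own comparison, with fold changes, p-values and 18 columns of values per sample, was not used. The gene lengths in the deposited table were used for levels per kb.

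Counts were tested with edgeR version 4.0.16 (R 4.3.3): TMM, filterByExpr by group, glmQLFit and glmQLFTest, a prior count of 0.125, and Benjamini-Hochberg adjustment over 12296 genes. A standard error is the log2 fold change divided by the square root of F. Alternatives were DESeq2 version 1.42.0, other scalings and filters, glmTreat, a replicate block and libraries left out. Ratios were tested with scipy version 1.17.1. Motif searches covered both strands. The fits were tested on simulated data. Libraries of a group all differed beyond counting noise (chi-square per gene from 3.47 to 7.35). Counting limits cover counting error only.

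The brakes, the lists and the tests were chosen with earlier results of these data known. Named genes are the brakes, the denominators of the ratios, up to 3 largest rises and 3 largest falls per list among called genes whose mean count reached 50, and the 3 closest profiles to Tnfaip3 and Irak3, for which 0.5 was added to CPM before taking logs. Marker genes and Tmbim4 were named outside this rule, after their values were seen. Values that rest on 1 further marker gene, a list sum among them, are not reported here.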

Additional observations from a re-analysis of the deposited data

How the results depend on the processing

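The counts of brakes that rose or were DEG stayed within 1.5 times under every alternative run, and no called value changed sign. glmTreat at 1.5 also called 2 DEG. Otulin was the only brake whose call was lost, in the 7 fits named with its values. Between control and LPS libraries of the same number, deviations from the group means correlated at 0.136, 0.0588 and -0.00415 for numbers 1, 2 and 3. Between libraries of different numbers the values ran from -0.144 to 0.0912. The value for number 1 was thus the highest, and those for 2 and 3 lay within the range of different numbers. Whether libraries of the same number shared a culture or batch was not tested. With a replicate block, 6 brakes rose and Tnfaip3 stood at 2.34, and 2 genes of the ubiquitin list fell in place of 1. That count was also 2 with RLE size factors, without a filter on low counts and without control replicates 2 and 3 together, 3 with upper-quartile factors, and from 1 to 2 over the fits that leave out 1 library, with 2 without control replicate 1, control replicate 2 or LPS replicate 3. In the list of activating kinases and ligases, 1 gene fell with upper-quartile factors and 1 without control replicates 2 and 3, in place of 0. The cause was not tested. Upper-quartile factors moved the median of all genes by -0.048. Sigirr, at a mean of 16.2 counts, and Peli2 and Peli3 held few counts, and the effect of depth on their results was not tested.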
